A study of Mus musculus with 6 samples.

Results

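Lipid synthesis in T cells was examined through 33 genes of cholesterol and fatty acid synthesis, listed by symbol. A gene was represented by the probe set whose annotated symbol was exactly its own, which left 30 genes among the 41345 probe sets of the array (22180 genes were named by 1 symbol). Each of the 30 had a single such probe set. Idi1 and Scd2 were named only on probe sets with several symbols, and Acat2 on none, so these 3 were not analysed here. The 30 comprised 16 enzymes of the sterol branch, 4 sterol regulators and 10 genes of the fatty acid branch, with malic enzyme (Me1) counted in the last.

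The arrays carried total RNA of mouse CD8+ T cells, sorted naive from spleen and stimulated over 4 days with antibodies to CD3 (1 µg/ml) and CD28 (3 µg/ml). Tc1 cultures, the interferon-gamma-producing state, received IL-12 for 3 days, and Tc17 cultures, the IL-17-producing state, received IL-6 with TGFb in its place. Both were then kept in IL-2 for the remaining day. The sources used here give neither strain nor age and do not say that the numbered samples came from different mice, so p-values measure only the spread between these samples, which may be technical. Each group had 2 biological samples, and sample 2 of each had a further technical array, which gives 6 arrays in all. The T cell genes Cd3e, Cd3d, Cd3g, Cd8a and Cd8b1 lay between 11.62 and 13.14 on every array, and Cd4 between 6.80 and 7.36. Adipocyte and hepatocyte markers, which would come with strongly lipogenic tissue, lay between 3.82 and 6.88, and none of these 7 passed the test (limma, adjusted p under 0.05; 0 of 7 also at an unadjusted p under 0.05). All 5 macrophage and monocyte markers were measured, and their summed level ran from 9.98 to 10.52 in Tc1 and from 10.55 to 10.74 in Tc17 (log2). Lyz2 was the called member (5.21 to 5.68 in Tc1, 8.74 to 9.18 in Tc17). Adgre1, Csf1r and Cd14 had differences of 0.38, 0.28 and 0.25 (log2, Tc17 minus Tc1) with all Tc17 arrays above all Tc1 arrays. With Lyz2, 4 of the 5 were higher at an unadjusted p under 0.05 (7.35% of all probe sets). Cd68, the brightest of the 5, differed by −0.14 with overlapping arrays. Adgre1 and Cd14 stayed below every array median. Of the B cell markers 3 of 4 were measured, with a summed level of 9.82 to 10.02 in Tc1 and 10.32 to 10.48 in Tc17. Cd79b, the brightest of the 3, differed by 0.52, and Cd79a and Ms4a1 by 0.02 and −0.06 with overlapping arrays. The 3 NK cell markers summed to 6.30 to 6.34 in Tc1 and 6.45 to 6.66 in Tc17. Klre1 differed by 0.43, and Ncr1 and Klrb1c by 0.01 and 0.04 with overlapping arrays. In each of these 2 lists none was called by limma and 1 was higher at an unadjusted p under 0.05. The B cell marker Ms4a1 and all 3 NK cell markers stayed below every array median in their means. The summed level of 4 dendritic cell markers overlapped between the groups (7.57 to 7.69 in Tc1, 7.62 to 7.94 in Tc17), and none passed (limma; 0 of 4 also at an unadjusted p under 0.05). Whether other cells had a part in the results was not tested.

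Cholesterol is built from acetyl-CoA through the mevalonate pathway, squalene and lanosterol, and fatty acids from the same acetyl-CoA by carboxylation, chain building, elongation and desaturation. The SREBP factors, encoded by Srebf1 and Srebf2, switch on most of these enzymes when membrane sterol is low, and INSIG1 holds them back. Malic enzyme turns cytosolic malate into pyruvate and yields NADPH, the reducing power that both branches consume. T cells raise these pathways after activation, when they grow and divide.

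The SREBP proteins act at gene promoters together with NF-Y and Sp1, so the bases before the start of 6 members are printed: the 4 sterol enzymes with the lowest Tc17 values relative to Tc1, Me1, and Elovl6, the fatty acid gene with the largest difference in the other direction. Each is the 250 bases before the outermost RefSeq start (build GRCm38.p6), 5′ to 3′ on the gene's own strand. Capitals mark matches to TCACNCCAC (a sterol regulatory element), CCAAT (the NF-Y box) and GGGCGG (the Sp1 box) on either strand. The windows are chr13:119690101-119690350 (+) for Hmgcs1, chr3:89454291-89454540 (+) for Pmvk, chr5:4104698-4104947 (-) for Cyp51, chr8:64733579-64733828 (-) for Msmo1, chr9:86695915-86696164 (-) for Me1 and chr3:129532136-129532385 (+) for Elovl6.
Hmgcs1: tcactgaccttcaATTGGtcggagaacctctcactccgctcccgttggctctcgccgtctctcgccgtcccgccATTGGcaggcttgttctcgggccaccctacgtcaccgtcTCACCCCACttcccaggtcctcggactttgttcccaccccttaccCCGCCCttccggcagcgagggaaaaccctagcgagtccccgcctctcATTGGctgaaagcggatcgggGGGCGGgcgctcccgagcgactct
Pmvk: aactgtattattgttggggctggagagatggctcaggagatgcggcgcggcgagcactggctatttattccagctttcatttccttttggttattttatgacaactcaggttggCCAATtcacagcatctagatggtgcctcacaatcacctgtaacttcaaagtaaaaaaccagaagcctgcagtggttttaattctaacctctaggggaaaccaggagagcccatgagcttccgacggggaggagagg
Cyp51: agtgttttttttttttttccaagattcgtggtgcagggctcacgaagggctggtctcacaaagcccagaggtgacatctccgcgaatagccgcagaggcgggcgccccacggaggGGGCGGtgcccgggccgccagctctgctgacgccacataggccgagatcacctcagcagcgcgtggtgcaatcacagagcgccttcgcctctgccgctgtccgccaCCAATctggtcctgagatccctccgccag
Msmo1: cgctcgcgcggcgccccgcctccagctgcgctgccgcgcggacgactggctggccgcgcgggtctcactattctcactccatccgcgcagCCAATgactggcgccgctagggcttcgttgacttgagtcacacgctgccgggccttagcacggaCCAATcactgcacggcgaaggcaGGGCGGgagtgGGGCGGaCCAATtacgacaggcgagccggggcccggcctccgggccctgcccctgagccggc
Me1: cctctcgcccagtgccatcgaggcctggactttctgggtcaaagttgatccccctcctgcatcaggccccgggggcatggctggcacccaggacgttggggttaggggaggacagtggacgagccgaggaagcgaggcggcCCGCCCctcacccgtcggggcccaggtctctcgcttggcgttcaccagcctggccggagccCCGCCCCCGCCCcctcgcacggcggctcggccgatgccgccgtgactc
Elovl6: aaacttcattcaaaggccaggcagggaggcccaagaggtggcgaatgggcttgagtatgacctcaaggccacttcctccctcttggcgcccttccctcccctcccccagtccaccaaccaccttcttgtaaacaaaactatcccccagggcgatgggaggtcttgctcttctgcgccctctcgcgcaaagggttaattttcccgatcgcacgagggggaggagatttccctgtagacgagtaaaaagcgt

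Hmgcs1 held a match to TCACNCCAC, 137 to 129 bases before its start, with 3 NF-Y boxes and 2 Sp1 boxes around it. Cyp51 and Msmo1 each held both of the other boxes and Pmvk an NF-Y box alone. The Me1 window held 3 Sp1 boxes, 2 of them adjoining, and no NF-Y box; a further RefSeq start of Me1 had an NF-Y box 208 to 204 bases before it. The Elovl6 window held no match. RefSeq promoters were at hand for 24 of the 30 genes, some with several starts, 30 windows in all; Fads1, Fdft1, Stard4, Sqle, Scd1 and Fdps had no entry. An NF-Y box stood in 13 of 16 windows of sterol enzymes, covering 13 of 13 genes, and in 4 of 9 windows of fatty acid genes, covering 4 of 8, with Me1 among them through its further start. The share over all 32851 promoters of that length was 33.8%. An Sp1 box stood in 13 of 16 sterol windows and 4 of 9 fatty acid windows, against 32.7% of all promoters. TCACNCCAC was found in 1 of the 30 windows, that of Hmgcs1, and in 1.05% of all promoters. Other spellings of a sterol regulatory element were not searched. The core of the antioxidant response element (TGACNNNGC) stood in 4 of the 30 windows and 10.2% of all promoters, and the E-box CACGTG in 5 and 6.02%. Among the member windows 4 matches overlapped a match to another motif. A match describes these letters and shows no binding.

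**Figure D1:**
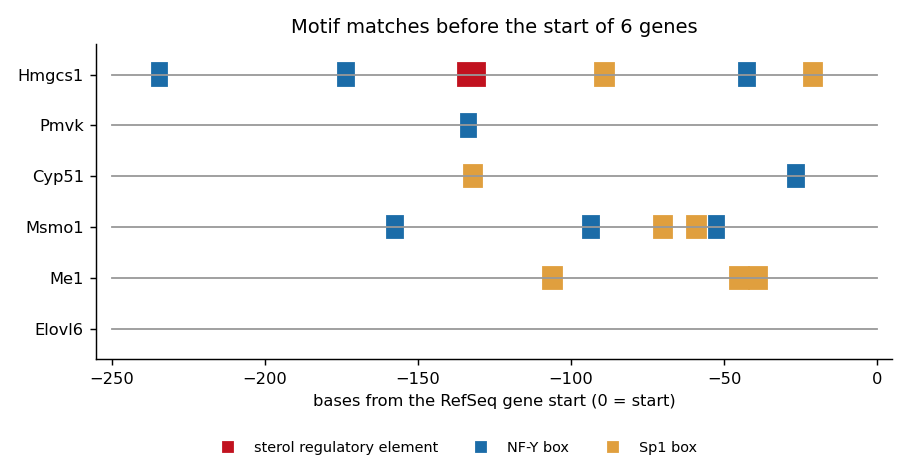
Motif matches in the 250 bases before the outermost RefSeq start of 6 genes, with the x axis in bases from the start. Coloured boxes are matches on either strand. Hmgcs1 alone of the 6 holds a match to TCACNCCAC, the 1 spelling of a sterol regulatory element searched, and Elovl6 holds no match.

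The comparison asked how lipid synthesis genes differ between Tc17 and Tc1. Me1 was the single member that passed the test: its intensity fell 17.4-fold in Tc17, to a level under every array median, while the remaining 29 genes differed by 1.76-fold or less. Sterol enzymes lay lower in Tc17 in 15 of 16 cases, led by Hmgcs1, Pmvk, Cyp51 and Msmo1, and their median difference was −0.12 (log2, Tc17 minus Tc1 here and below). The fatty acid branch without Me1 lay higher in 7 of 9, with a median of 0.09, so the branches had medians of opposite sign. Of those 9, all Tc17 arrays lay above all Tc1 arrays in 2 and below them in 2 (11.8% and 11.9% of all probe sets). At an unadjusted p under 0.05 (limma), 1 of the 9 was higher and 1 lower (7.35% and 5.91% of all probe sets). Over all probe sets the median difference was −0.02, and 54.7% were below 0.

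Tests were limma's moderated test on 2 against 2 samples, adjusted by Benjamini-Hochberg over the whole table. It called 1 of 30 members lower (0.375% of all probe sets were called lower) and 0 of 30 higher (0.636% of all probe sets). At an unadjusted p under 0.05, 7 members were lower and 1 higher, against 5.91% and 7.35% of all probe sets. Among probe sets at or above the median level, 8.67% were lower and 11.4% higher at that p. All 3 Tc17 arrays lay below all 3 Tc1 arrays in 14 of 30 members, against 11.9% of all probe sets, and above them in 3 of 30, against 11.8%. Every member had a mean above every array median, and among probe sets at or above the median level those shares were 15.2% and 17.9%. Me1 had such a mean through its Tc1 arrays alone, as its Tc17 arrays lay below every array median. The technical arrays repeat a sample, so these counts rest on 2 samples per group. A reading of the 6 arrays as separate samples, which counts sample 2 as if it were more than 1 sample, called 5 members lower: Me1, Hmgcs1, Pmvk, Cyp51 and Msmo1 (limma adjusted p = 0.00302 for Hmgcs1). Under that reading 2.31% of all probe sets were called lower.

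**Figure D2:**
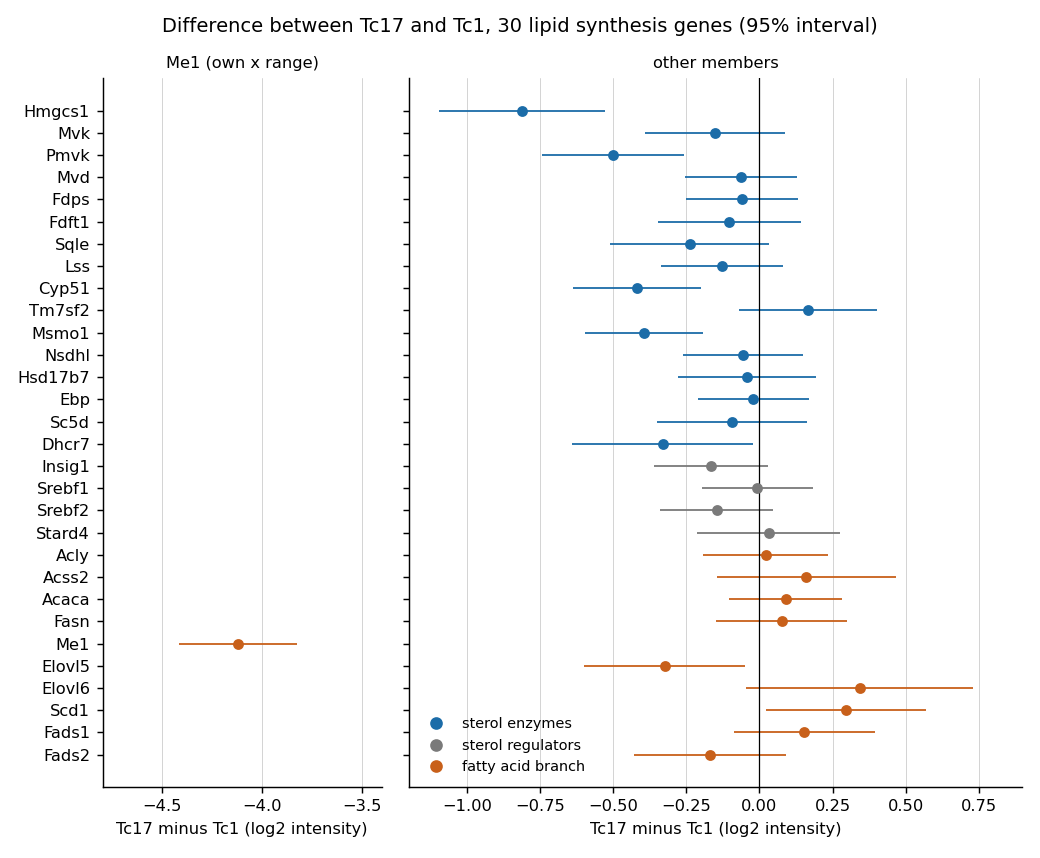
Tc17 minus Tc1 difference of the 30 genes (x axis, log2 intensity) with the 95% interval of limma's moderated fit, in pathway order and coloured by branch; Me1 has a panel with its own x range. Most sterol enzymes sit left of 0, from −0.81 for Hmgcs1, and Me1 stands alone at −4.12.

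Among the enzymes that make and use mevalonate, Hmgcs1, which condenses acetyl groups to HMG-CoA at the entry of the pathway, stood furthest apart. It measured 12.24, 12.43 and 12.36 on the Tc1 arrays (sample 1, sample 2 and the technical array, an order kept below) and 11.41, 11.63 and 11.58 on the Tc17 arrays. The groups did not overlap, and the difference was −0.81 ± 0.11 (SE), a level 1.76-fold lower in Tc17 that missed the threshold (limma adjusted p = 0.0661). It passed when only probe sets at or above the median level were tested (limma adjusted p = 0.0409), a fit that called 1.22% of its probe sets lower. Pmvk, which adds the second phosphate to mevalonate, measured 9.55, 9.61 and 9.56 in Tc1 and 8.98, 9.28 and 9.03 in Tc17. Its arrays were also separate, but Tc17 sample 2 and its technical array lay 0.25 apart, the widest technical gap among the 30 genes in either group. The difference was −0.50 ± 0.09 (SE, limma adjusted p = 0.127). Mvk, which adds the first phosphate, and Mvd, which removes a carboxyl group to give the isoprenoid unit, differed by −0.15 and −0.06. Fdps, which joins these units to farnesyl diphosphate, differed by −0.06 (95% interval −0.25 to 0.13) and was the brightest of the 30 probe sets, with a mean of 12.96.

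From squalene to lanosterol the differences were smaller than those of Hmgcs1, Pmvk and Cyp51. Fdft1, the squalene synthase gene, differed by −0.10, Sqle, the squalene epoxidase gene, by −0.24, and Lss, the lanosterol synthase gene, by −0.13. Cyp51, which removes a methyl group from lanosterol, measured 10.82, 10.74 and 10.80 in Tc1 and 10.32, 10.49 and 10.39 in Tc17. No array of one group reached the other, and the difference was −0.42 ± 0.08 (SE, limma adjusted p = 0.146). Msmo1, the methyl sterol oxidase of the next steps, measured 10.52, 10.58 and 10.64 in Tc1 and 10.16, 10.19 and 10.17 in Tc17. Its Tc17 arrays were the closest together of the genes in the plot of levels, and the difference was −0.40 ± 0.08 (SE, limma adjusted p = 0.142).

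The enzymes that finish the sterol differed less, apart from Dhcr7. Dhcr7, which acts in the last step to cholesterol, differed by −0.33 (95% interval −0.64 to −0.02, limma adjusted p = 0.348). Nsdhl and Hsd17b7, which act with Msmo1 in removing methyl groups, differed by −0.06 and −0.04. Ebp, the sterol isomerase, differed by −0.02 and Sc5d, a sterol desaturase, by −0.10. Tm7sf2, a sterol reductase, was the exception among the sterol enzymes, with a difference of 0.17 (95% interval −0.07 to 0.40) and all Tc17 arrays above all Tc1 arrays. Of the 16 enzymes, 9 had all Tc17 arrays below all Tc1 arrays (Hmgcs1, Mvk, Pmvk, Fdps, Sqle, Lss, Cyp51, Msmo1 and Dhcr7). The share was 11.9% over all probe sets and 15.2% among those at or above the median level. None of the 16 was called by limma, and 5 had an unadjusted p under 0.05, all of them lower. Over all probe sets 5.91% were lower at that p, and 8.67% among those at or above the median level.

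**Figure D3:**
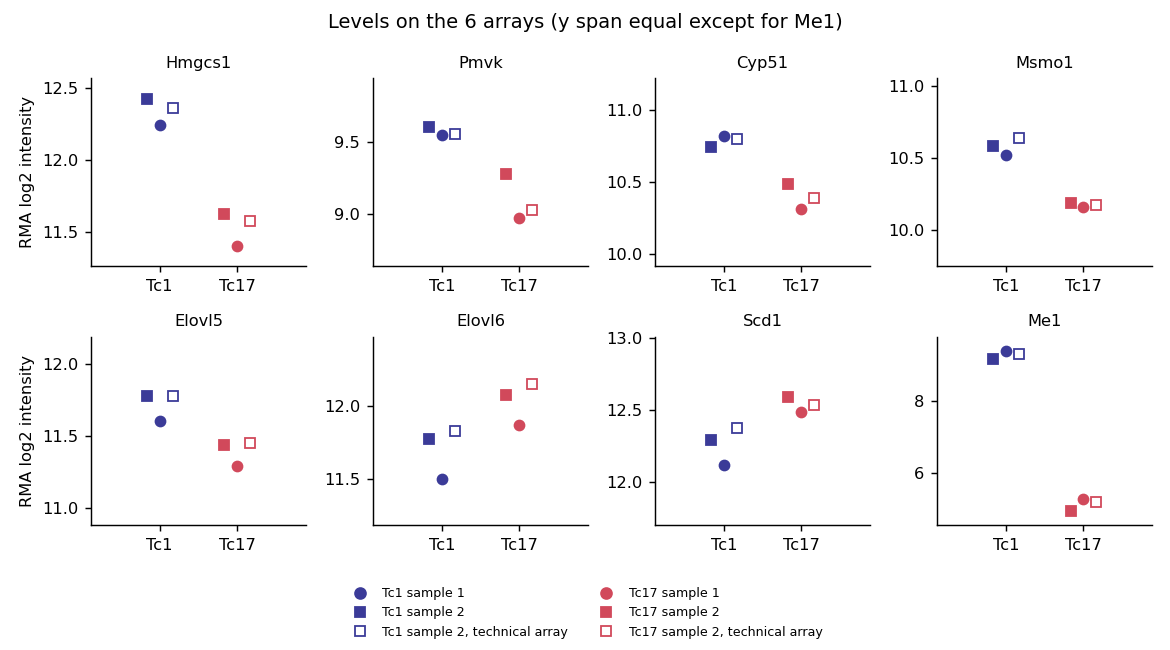
RMA log2 intensity (y axis) of 8 genes on the 6 arrays, Tc1 in blue and Tc17 in red; circles are sample 1, filled squares sample 2 and open squares its technical array. The y span is equal in every panel except that of Me1, whose Tc17 arrays lie between 4.95 and 5.29 and Tc1 arrays between 9.16 and 9.38.

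The 4 sterol regulators differed by 0.17 or less. Of these, 3 lay below 0, and the median was −0.08, beside −0.12 for the sterol enzymes. Insig1, which retains the SREBP complex in the endoplasmic reticulum, measured 12.00, 11.93 and 11.94 in Tc1 and 11.81, 11.79 and 11.78 in Tc17, a difference of −0.17 ± 0.07 (SE, limma adjusted p = 0.453). Srebf2, whose product chiefly drives sterol genes, measured 11.87, 11.96 and 11.90 in Tc1 and 11.76, 11.74 and 11.77 in Tc17, a difference of −0.15 ± 0.07 (SE, limma adjusted p = 0.508). For both, every Tc17 array was below every Tc1 array, by a narrow margin. Srebf1, whose product chiefly drives fatty acid genes, measured 10.02, 10.08 and 10.02 in Tc1 and 10.04, 10.01 and 10.02 in Tc17. The groups overlapped, and the difference of −0.01 had a 95% interval of −0.20 to 0.18. Stard4, a carrier of cholesterol between membranes, measured 10.06, 10.10 and 10.19 in Tc1 and 10.05, 10.18 and 10.24 in Tc17, a difference of 0.03 (95% interval −0.21 to 0.28). None of the 4 was called by limma, and none had an unadjusted p under 0.05.

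In the fatty acid branch the genes that supply and carboxylate acetyl-CoA had differences near 0. Acly, which cuts citrate into cytosolic acetyl-CoA, differed by 0.02 (95% interval −0.19 to 0.23), and Acss2, which makes acetyl-CoA from acetate, by 0.16 (−0.15 to 0.47). Acaca, the acetyl-CoA carboxylase gene, differed by 0.09, and Fasn, the fatty acid synthase gene, by 0.08 (95% interval −0.15 to 0.30).

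The elongase genes had differences of opposite sign. Elovl6, which extends palmitate, measured 11.50, 11.78 and 11.83 in Tc1 and 11.87, 12.08 and 12.16 in Tc17, a difference of 0.34 ± 0.15 (SE, limma adjusted p = 0.436). Elovl5, which extends polyunsaturated chains, measured 11.61, 11.78 and 11.78 in Tc1 and 11.29, 11.44 and 11.45 in Tc17, a difference of −0.32 ± 0.10 (SE, limma adjusted p = 0.308). In both genes the groups were separate and sample 1 was the lowest array of its group; whether the 2 genes differed in response was not tested. Scd1, which places the double bond in stearate, measured 12.12, 12.29 and 12.38 in Tc1 and 12.49, 12.59 and 12.53 in Tc17, a difference of 0.30 ± 0.10 (SE, limma adjusted p = 0.34) with no overlap. The neighbouring desaturase genes Fads1 and Fads2, which act on polyunsaturated fatty acids, also differed in sign. Fads1 measured 11.28, 11.50 and 11.39 in Tc1 and 11.48, 11.53 and 11.58 in Tc17, a difference of 0.15 with overlapping arrays. Fads2 measured 12.68, 12.71 and 12.71 in Tc1 and 12.42, 12.65 and 12.61 in Tc17, a difference of −0.17 without overlap. Neither passed (limma adjusted p = 0.590 and 0.580).

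Me1 measured 9.38, 9.16 and 9.29 on the Tc1 arrays and 5.29, 4.95 and 5.19 on the Tc17 arrays. The lowest Tc1 array lay 3.87 above the highest Tc17 array. Group means were 9.30 ± 0.11 and 5.18 ± 0.15 (SD, n = 2), and the difference was −4.12 ± 0.11 (SE, limma adjusted p = 0.00256). All 3 Tc17 arrays lay below every array median (6.04 to 6.09), so signal above background was not shown in Tc17 and the fold holds for intensities.

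Me1 was set beside its neighbours along the chromosome, in RefSeq order, a step chosen after its value had been seen. Dop1a, Pgm3 and Rwdd2a on one side differed by 0.04, 0.14 and −0.29, and none passed. On the other side A330041J22Rik, a long non-coding RNA gene that adjoins Me1, stayed under all array medians on all 6 arrays (5.23 to 5.61). Prss35, a gene of the serine protease family, is the measured gene after it. It was 8.74, 8.02 and 8.46 in Tc1 and 5.70, 5.47 and 5.89 in Tc17, a fall of 6.98-fold in intensity (log2 difference −2.80 ± 0.18 SE, limma adjusted p = 0.0130), again with every Tc17 array below the array medians. Without Tc17 sample 1 or Tc17 sample 2 the limma adjusted p for Prss35 was 0.0880 or 0.0765. Snap91, the measured gene beyond it, differed by −0.21 and did not pass. Its arrays ran from 5.78 to 6.14 with a mean of 5.94, below every array median, so signal above background was not shown.

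**Figure D4:**
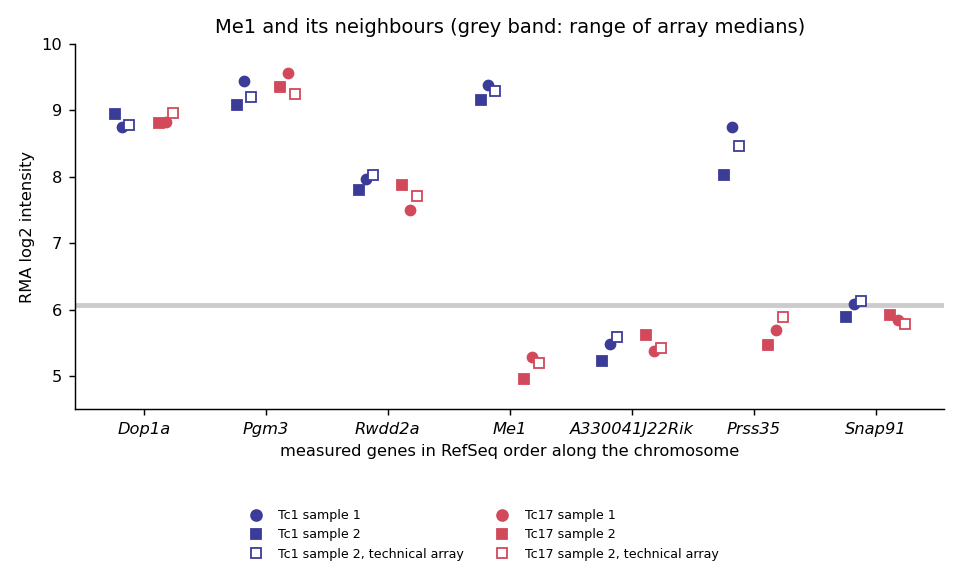
RMA log2 intensity (y axis) of Me1 and the 3 nearest measured genes on either side in RefSeq order, on the 6 arrays; the grey band is the range of the array medians. Me1 and Prss35 are the genes whose Tc1 arrays lie far above the band and whose Tc17 arrays lie below it.

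Each gene was then centred on its own mean over the 4 samples, and the median was taken over a branch on each array. The sterol median was 0.02, 0.13 and 0.11 on the Tc1 arrays and −0.10, −0.04 and −0.05 on the Tc17 arrays. For the fatty acid branch without Me1 it was −0.04, −0.05 and 0.00 in Tc1 and 0.04, 0.04 and 0.09 in Tc17. Sterol minus fatty acid was 0.06, 0.17 and 0.11 in Tc1 and −0.14, −0.08 and −0.14 in Tc17, so the groups did not overlap on this value, which has no test here. Samples within a culture also differed: sample 1 was below sample 2 in 14 of 16 sterol enzymes in Tc1 and in 14 of 16 in Tc17. The median absolute gap between samples 1 and 2 over the 30 genes was 0.10 in Tc1 and 0.08 in Tc17, about the size of the sterol median difference, and between sample 2 and its technical array it was 0.05 in each. Without Tc1 sample 1 the sterol median difference was −0.18, and without Tc1 sample 2 it was −0.06. The fatty acid median, Me1 included, was 0.08, and 0.04 without Tc1 sample 2 and 0.05 without the technical arrays.

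**Figure D5:**
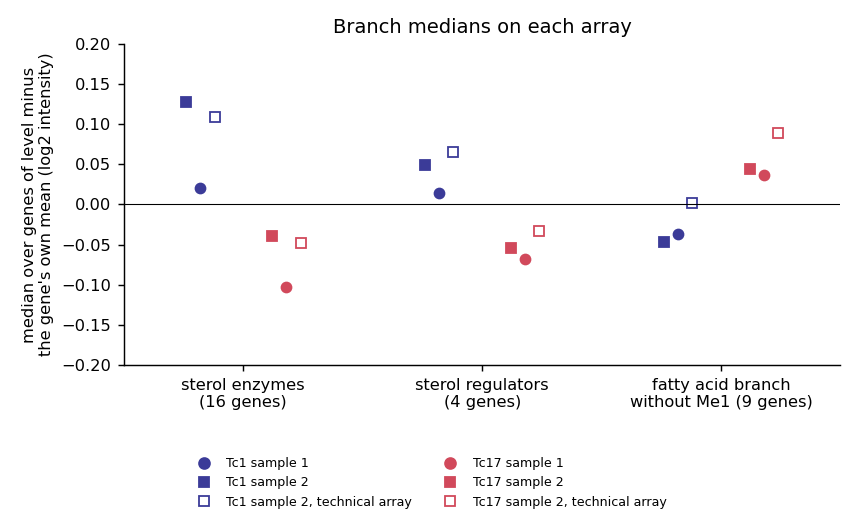
Median over the genes of a branch of each gene's level minus its own mean (y axis, log2 intensity) on the 6 arrays, for 16 sterol enzymes, 4 regulators and 9 fatty acid genes without Me1. The sterol median lies higher in Tc1 and the fatty acid median higher in Tc17, with Tc1 sample 1 nearest to the Tc17 arrays for the sterol enzymes.

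Other genes of these pathways were taken from 4 lists. For the counts below, limma called 0.375% of all probe sets lower and 0.636% higher. At an unadjusted p under 0.05 the shares were 5.91% lower and 7.35% higher, and 54.7% of all probe sets lay below 0. Of 19 genes of later sterol steps, SREBP control and cholesterol traffic 14 were measured, none was called by limma (3 lower and 0 higher at an unadjusted p under 0.05) and the median difference was 0.02. The largest differences were those of Mylip, a ubiquitin ligase gene of cholesterol uptake (−0.89 ± 0.12 SE, limma adjusted p = 0.0720), and Lbr, a sterol reductase of the nuclear envelope (−0.61 ± 0.09 SE, limma adjusted p = 0.0806). Of the genes that process SREBP, Scap differed by 0.07, Mbtps1 by 0.19, Mbtps2 by 0.15 and Insig2 by 0.02. All Tc17 arrays lay above all Tc1 arrays for Mbtps1 and Mbtps2 (11.8% of all probe sets), and the groups overlapped for Scap and Insig2.

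Of 28 genes of fatty acid activation, elongation and glycerolipid assembly 26 were measured, with 13 differences on either side of 0, and 1 was called higher (3 lower and 4 higher at an unadjusted p under 0.05). Acsl6, a gene that activates long-chain fatty acids, measured 7.21, 7.06 and 7.28 in Tc1 and 8.80, 8.25 and 8.52 in Tc17, a difference of 1.40 ± 0.15 (SE, limma adjusted p = 0.0437). The call ended without either Tc1 sample (limma adjusted p = 0.184 for sample 1 and 0.179 for sample 2), without Tc17 sample 1 (0.0911) and without the technical arrays (0.0787). Averaged with its other probe set Acsl6 differed by 0.66 (limma adjusted p = 0.145). Lpin2, a phosphatidate phosphatase gene, had a difference of −1.31 ± 0.15 (SE) and missed the threshold (limma adjusted p = 0.0516).

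Among 16 genes that supply NADPH or citrate, 14 were measured and none was called by limma (0 lower and 2 higher at an unadjusted p under 0.05). The other malic enzymes, Me2 and Me3, which act in mitochondria, differed by 0.02 and 0.09 (limma adjusted p = 0.975 and 0.777). Pgd of the pentose phosphate pathway, another source of cytosolic NADPH, differed by −0.04 and Idh1, an isocitrate dehydrogenase gene, by −0.08. G6pdx, also listed as an NADPH source, was not measured. Slc25a1, the mitochondrial citrate exporter that feeds ACLY, differed by 0.07. The largest differences of that list were 0.39 for Aldh1l1, a folate enzyme gene listed as an NADPH source, and 0.26 for Nnt, the mitochondrial transhydrogenase gene. Both had all Tc17 arrays above all Tc1 arrays, and neither passed. All 11 regulators of lipogenesis were measured, 8 of them lay below 0 and the median difference was −0.13. At an unadjusted p under 0.05, 2 were lower, Mlx, the partner of the carbohydrate response factors (−0.28), and Mid1ip1, an activator of acetyl-CoA carboxylase (−0.30), and 1 was higher. By limma 1 was called: Nfe2l2, whose product NRF2 is a known activator of Me1 and other NADPH-producing enzymes, rose in Tc17. It measured 9.62, 9.58 and 9.66 in Tc1 and 10.93, 10.68 and 10.79 in Tc17, a difference of 1.22 ± 0.10 (SE, limma adjusted p = 0.0205), opposite in sign to that of Me1. Without any 1 of the 4 samples its limma adjusted p ran from 0.0695 to 0.127. Thra, a thyroid hormone receptor gene, differed by 0.37 and did not pass.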

How the data were processed

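Total RNA, labelled with biotin, was hybridised to 6 Affymetrix arrays. The deposited values were log2 intensities that the authors deposited; the submitters' processing notes name RMA and Partek without versions or roles. RMA corrects background, equalizes arrays by quantiles and reduces the probes of a set to 1 value. The build and annotation behind the table are not given in the sources used here. Without detection calls, low signal and absent signal look alike. Names came from the platform annotation.

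Each technical array was averaged with sample 2 of its group, which left 2 samples per group, so their number limits the precision. Differences were fitted by lmFit and eBayes of limma 3.58.1 (R 4.3.3; 2 residual degrees of freedom) over all 41345 unfiltered probe sets, with a threshold of 0.05 on Benjamini-Hochberg adjusted p. The procedure was tested on simulated data. Alternatives were other readings of the technical arrays, a replicate block, median centring, quantile normalization, a filter on level, trend and robust settings of eBayes, averaging a gene's probe sets, and each sample left out.

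The members and lists were chosen with earlier results of these data known. Array values are given for called members, the 3 largest differences of each branch and 4 gene pairs (Scd1 without Scd2); Msmo1 was added after its value was seen, as were the cell type markers with values, Mlx, Mid1ip1 and the Me1 neighbours. Other pathway genes were named if called or among the 2 largest of their list; SREBP processing genes, other NADPH sources and Slc25a1 were added after their values were seen. Promoters came from RefSeq (GRCm38.p6). Figures were drawn with matplotlib 3.10.9.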

Additional observations from a re-analysis of the deposited data

How the results depend on the processing

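Me1 kept its direction in all 13 alternatives, with differences from −4.23 to −4.01. With no sample left out it also kept its call, with limma adjusted p from 9.5e-06 to 0.0043. The replicate block, the filter on level, the eBayes settings and the averaging of probe sets cannot change a member's difference. Me1 passed that filter through its Tc1 arrays, as its Tc17 arrays lay below every array median. The count of called members was 1, and it was 5 with all 6 arrays as separate samples, 5 with the biological sample as a random block, and 2, Hmgcs1 added, with the replicate block or with only probe sets at or above the median level. The count was 1 in each fit without 1 sample, where the lone sample of a group is assumed to vary like the other group. Samples of the 2 groups share only a number: deviations of same-numbered samples correlated at 0.31, a value that 2 samples per group make equal for both numbers. Under the block 1535 probe sets were called, against 418. They numbered 2318 with the 6 arrays as separate samples, 2074 with the random block, 648 with the filter, and 48 to 125 without 1 sample. The sterol median difference ran from −0.18 to −0.058 without 1 sample and from −0.13 to −0.11 elsewhere. The fatty acid median ran from 0.043 to 0.10 without 1 sample, and was 0.054 without the technical arrays and 0.096 after quantile normalization. Of 377 pairs of another member and an alternative, fixed directions included, 361 kept direction and side of the threshold and 10 passed it. In 6 the sign turned, each time without 1 sample and in genes differing by 0.0441 or less. Without each sample in turn Hsd17b7 ran from −0.13 to 0.039 (positive without Tc17 sample 2), Srebf1 from −0.026 to 0.0094 (positive without Tc1 sample 2 and without Tc17 sample 2), Stard4 from −0.049 to 0.11 (negative without Tc1 sample 1 and without Tc17 sample 2) and Acly from −0.039 to 0.080 (negative without Tc1 sample 2). The cause was not tested.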
